A study of Homo sapiens with 18 samples.

Results

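The genes described here encode negative regulators of MAP kinase signalling: the dual-specificity phosphatases DUSP1, DUSP2, DUSP4, DUSP5, DUSP6 and DUSP10, the Sprouty proteins SPRY1 and SPRY2, and the Spred proteins SPRED1 and SPRED2. They were taken by symbol from a list chosen with earlier results of these data known. All 10 were found among the 25369 genes listed in each of the 2 deposited expression tables. RNA was sequenced from JEKO1 and MAVER, established human lines of mantle cell lymphoma, a cancer of mature B cells that usually overexpresses cyclin D1. The 18 libraries form 6 groups of 3 replicates, A to C, all harvested after 6 h. JEKO1 received DMSO or IB, and MAVER received DMSO, IB, KPT or PU. DMSO is the solvent control. The series description names 2 inhibitors with their doses, and the short labels were read accordingly: IB as 0.4 µM ibrutinib, which blocks the kinase BTK, and KPT as 1.5 µM selinexor, which blocks the nuclear exporter XPO1. No source used here says what PU stands for. Replicates are described as biological, but nothing states how the cultures were kept apart. Each p-value therefore sets a difference only against the spread between libraries, which may be technical.

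When receptors such as the B cell receptor activate RAS, a chain of kinases (RAF, MEK, ERK) carries the signal to the nucleus, where ERK drives transcription of early response genes. Some of these genes encode brakes on the same chain. DUSP proteins remove phosphate from MAP kinases, in the nucleus or in the cytoplasm and with differing preference for ERK, JNK and p38. Sprouty and Spred proteins act upstream, at the level of RAS and RAF, and SPRED1 recruits the RAS inactivator neurofibromin. Because many of these brakes are made in response to ERK, their transcripts are widely read as a record of recent pathway output.

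Promoter sequences are shown for DUSP1, DUSP2 and DUSP10, since these phosphatase genes moved in different directions in MAVER with KPT; for DUSP10, 1 of its 2 entries is printed. RefSeq promoter entries (GRCh38.p14) were matched for 8 of the 10 genes, with 13 entries in all. DUSP5, which was also called with KPT, had no entry, and DUSP4 was not searched. The 250 bases before each annotated start were searched on both strands. Motifs were the cyclic AMP response element TGACGTCA, its TGACG part (which the full element contains), the AP-1 site TGANTCA, the ETS core CCGGAA, the EGR1 site GCGGGGGCG, the SRF CArG box and the NF-kB site. Capitals mark matches, and each sequence runs 5′ to 3′ on the gene's strand.
DUSP1, chr5:172771196-172771445, minus strand: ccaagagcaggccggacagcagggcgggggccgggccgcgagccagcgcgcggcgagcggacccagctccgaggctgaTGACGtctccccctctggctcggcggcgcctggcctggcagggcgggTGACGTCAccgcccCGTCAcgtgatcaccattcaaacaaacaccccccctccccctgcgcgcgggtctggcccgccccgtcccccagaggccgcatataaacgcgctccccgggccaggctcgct
DUSP2, chr2:96145441-96145690, minus strand: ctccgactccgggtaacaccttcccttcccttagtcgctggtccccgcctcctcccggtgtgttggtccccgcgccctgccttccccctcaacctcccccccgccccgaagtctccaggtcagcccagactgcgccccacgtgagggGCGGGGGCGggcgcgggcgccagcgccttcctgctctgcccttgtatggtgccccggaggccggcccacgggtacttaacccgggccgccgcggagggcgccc
DUSP10, chr1:221742090-221742339, minus strand: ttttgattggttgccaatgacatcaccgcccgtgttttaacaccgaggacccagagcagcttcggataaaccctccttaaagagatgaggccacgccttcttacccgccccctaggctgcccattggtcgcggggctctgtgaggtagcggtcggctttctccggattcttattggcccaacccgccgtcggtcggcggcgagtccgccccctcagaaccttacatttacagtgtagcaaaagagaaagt

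The DUSP1 window held the full cyclic AMP response element from base -125 to base -118, counted back from the start, and further TGACG matches from -172 to -168 and, on the opposite strand, from -111 to -107. The full element was found in 1.65% of 35116 promoter windows of this length, and TGACG in 21.2%. The DUSP2 window held the EGR1 site from -103 to -95, as did a window each of SPRY1 and SPRY2; 4.72% of all windows held it. The ETS core was found in a window of SPRY1 and of SPRY2 and in 14.5% of all windows. No window of the matched genes held the AP-1 site (6.57% of all windows), the CArG box (1.16%) or the NF-kB site (9.96%), and the DUSP10 windows held none of the searched letters.

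The libraries held 5374226 to 17040599 recovered reads, with the lowest range, 5374226 to 7924550, in the KPT group. The ribosomal RNA precursor RNA45S5 was high in KPT replicates A and C and in JEKO1 DMSO replicate C, at 53819 to 66933 normalized counts against 7919 to 32274 in the other libraries. XPO1 transcript rose with KPT (log2 fold change 1.10 ± 0.04 SE, limma adjusted p = 8.17e-24). BTK was 0.30 higher with IB in JEKO1 and changed by -0.14 in MAVER on that scale (adjusted p = 8.42e-06 and 0.0161). All 6 B cell markers and the mantle cell lymphoma markers CCND1 and SOX11 were present in each line. T cell, myeloid and fibroblast marker lists summed to at most 26.1 normalized counts in any library. Epithelial markers, mainly EPCAM, summed to 171 to 209 in MAVER with DMSO, 171 to 200 with IB, 213 to 252 with KPT and 288 to 326 with PU, so both the KPT and the PU libraries lay above every DMSO library; their part in the results was not tested. In bulk RNA, fewer cells of a type and less RNA per cell cannot be told apart. For JEKO1, every direction holds for the labels as given: of 1411 genes called with IB in both lines, 1256 (89%) moved opposite ways, so lines that respond oppositely and JEKO1 labels that were exchanged cannot be told apart.

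In JEKO1, transcripts of most of these brakes were higher in the libraries labelled IB than in those labelled DMSO. Normalized counts (reads divided by a factor for each library) were compared on the log2(value + 1) scale with limma where they averaged 10 or more in that line. A gene was called when its p, adjusted over all genes tested by the Benjamini-Hochberg method, was under 0.05. Of the 10 genes, 8 passed the filter; 7 rose, 0 fell and DUSP1 was not called, and each of the 8 estimates was above 0. Of all 11609 genes tested, 21.9% rose, 20.2% fell and 42% were called in either direction. SPRY2 and SPRED2 passed the filter through their IB libraries, since their DMSO means were under 10, so the count is no independent measure of the family; of the 6 genes that averaged 10 or more in each group, 5 rose.

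**Figure D1:**
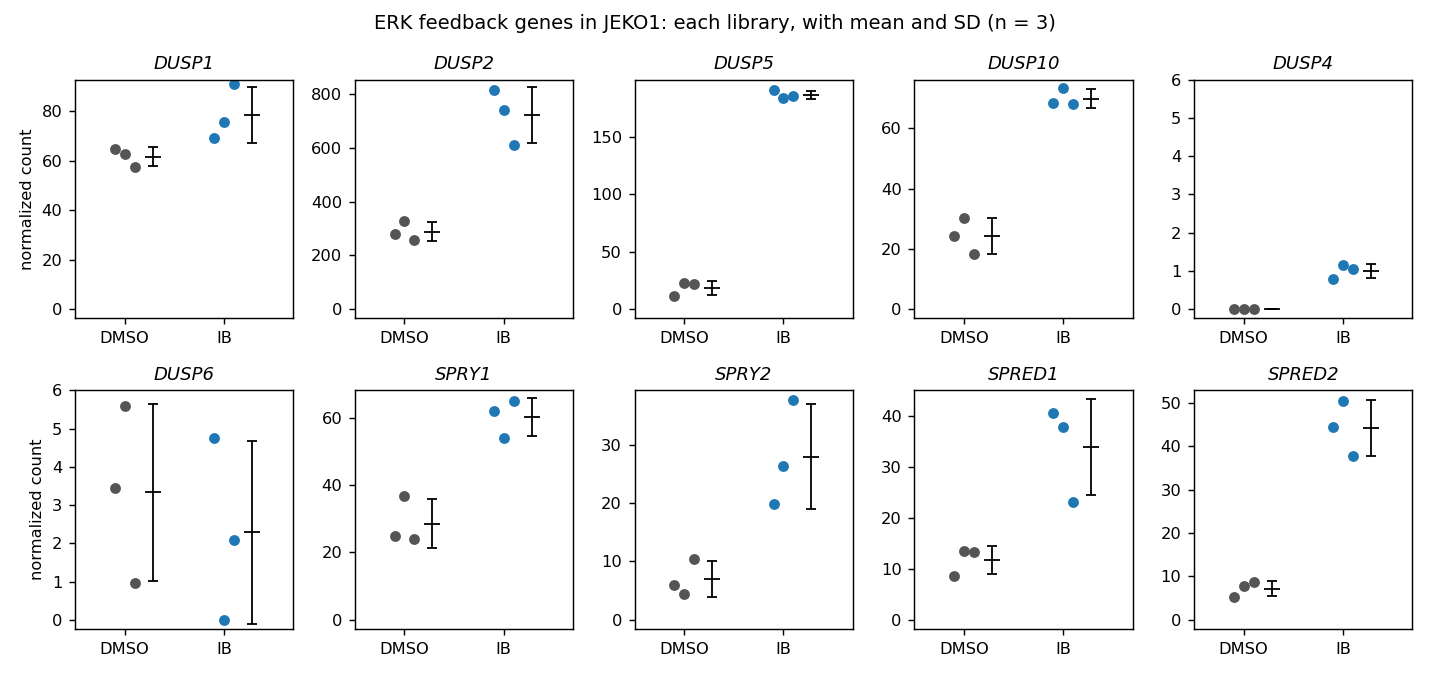
Normalized counts of the 10 genes in JEKO1 (vertical axis, own scale for each gene) for libraries labelled DMSO (grey) and IB (blue); points are libraries A, B and C from left to right, and the dash with bars is the mean and SD. All IB points lie above all DMSO points for each gene except DUSP6; IB and DMSO libraries did not overlap for 50.2% of all genes tested. DUSP4 stays at or under 1.15, with 0 reads in each DMSO library and 1 read in each IB library.

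DUSP5, a nuclear phosphatase specific for ERK, showed the largest difference of the family. It stood at 11.2, 22.4 and 21.9 normalized counts in DMSO libraries A, B and C, and at 191, 183 and 185 in the IB libraries. The groups were far apart and the IB libraries close together, and the log2 fold change was 3.32 ± 0.21 (SE) by limma (adjusted p = 9.98e-11). DUSP2, a nuclear phosphatase of activated lymphocytes, had 279, 327 and 259 normalized counts with DMSO against 816, 741 and 611 with IB (1.32 ± 0.10, adjusted p = 9.69e-10). Each IB library lay well above each DMSO library.

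DUSP10, which prefers JNK and p38 over ERK, rose from 24.1, 30.2 and 18.1 to 68.3, 73.4 and 68.0 normalized counts (log2 fold change 1.52 ± 0.21 SE, limma adjusted p = 5.89e-06). DUSP1, a nuclear phosphatase of ERK, JNK and p38 that is induced by stress and growth signals, stood at 64.7, 62.6 and 57.2 with DMSO and at 69.1, 75.7 and 91.0 with IB. The DUSP1 libraries did not overlap, as for 50.2% of all genes tested, but the difference of 0.34 (95% interval 0.01 to 0.67) was not called (adjusted p = 0.0879). DUSP6, the cytoplasmic ERK phosphatase often used as a pathway readout, was close to undetected: it was at 3.45, 5.59 and 0.954 normalized counts with DMSO and at 4.76, 0 and 2.09 with IB, 18 reads over all 6 libraries. DUSP4, a nuclear ERK and JNK phosphatase, had 0 reads in each DMSO library and 1 read in each IB library; a count of 0 allows up to 2.59 to 3.35 normalized counts per DMSO library (3 reads), so no difference was detectable at this depth.

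Among the Sprouty genes, SPRY1 rose from 25.0, 36.9 and 23.9 to 61.9, 53.9 and 64.9 normalized counts (log2 fold change 1.07 ± 0.21 SE, limma adjusted p = 0.000298). SPRY2 rose from 6.04, 4.47 and 10.5 to 19.9, 26.4 and 37.7 (1.88 ± 0.35, adjusted p = 0.000237). The groups did not overlap for either gene, and the SPRY2 values rest on few reads, 22 over the DMSO libraries and 84 over the IB libraries.

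Both Spred genes were higher as well. SPRED2 went from 5.17, 7.82 and 8.59 to 44.5, 50.5 and 37.7 normalized counts, the second largest difference of the family (log2 fold change 2.48 ± 0.29 SE, limma adjusted p = 7.52e-07). SPRED1 rose from 8.62, 13.4 and 13.4 to 40.5, 37.8 and 23.0 (1.43 ± 0.29, adjusted p = 0.000574). IB replicate C was the lowest of the IB group for DUSP2, DUSP10, SPRED1 and SPRED2 and the highest for DUSP1, SPRY1 and SPRY2. The 7 calls held when each library was left out in turn, DMSO replicate C with its high RNA45S5 included.

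In MAVER, 1 of these genes was called with the same drug label. Of the 5 genes that passed the filter there (DUSP1, DUSP2, DUSP5, DUSP10 and SPRY1), 1 fell and 0 rose. Of 11099 genes tested, 9.65% fell, 10.1% rose and 19.8% were called either way, so the count was near that share. Of the 4 genes that averaged 10 or more in each group, 0 rose and 0 fell. Each of the 5 estimates was below 0, but those of DUSP2 and SPRY1 crossed 0 when single replicates were left out. The gene that fell was DUSP5, from 20.3, 22.9 and 34.4 normalized counts with DMSO to 6.74, 4.47 and 7.43 with IB. Every IB library lay under every DMSO library (log2 fold change -1.88 ± 0.33 SE, limma adjusted p = 1.95e-05), although the IB values rest on 18 reads in all and DUSP5 passed the filter through the other groups, its IB mean being 6.22.

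**Figure D2:**
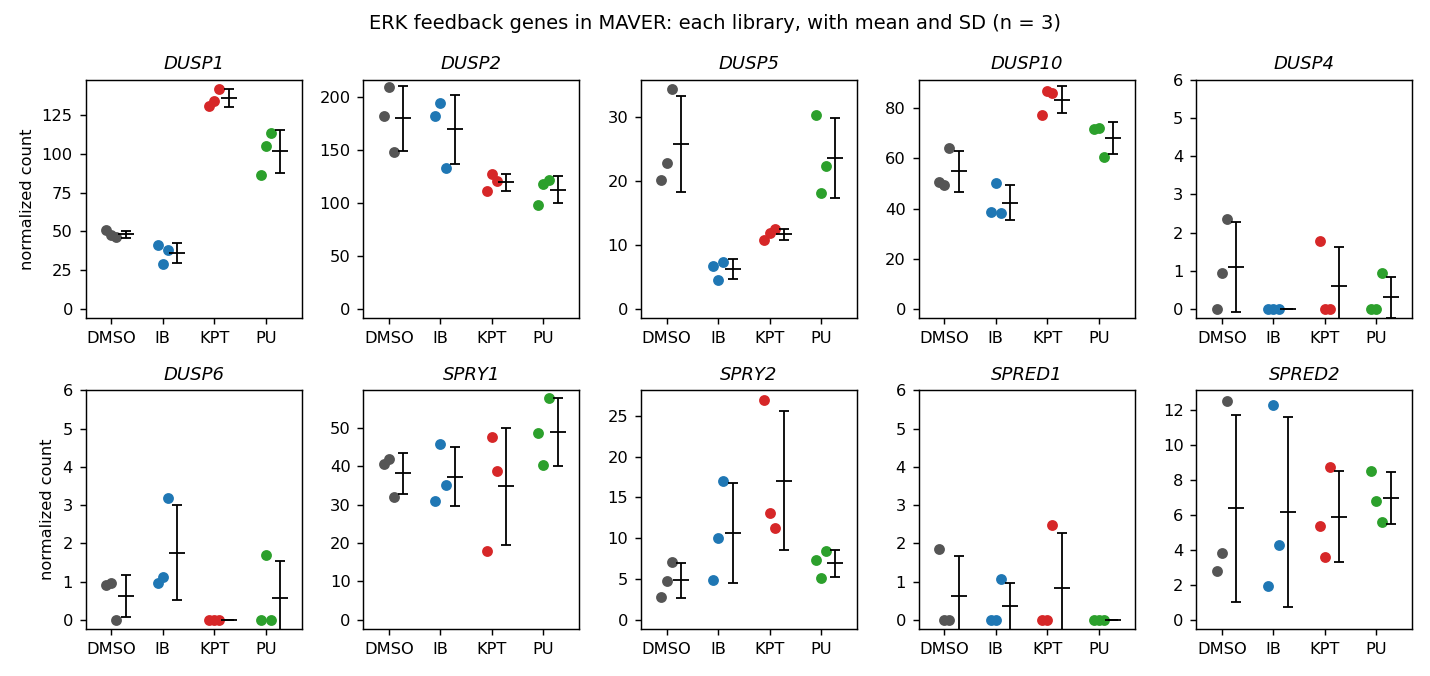
Normalized counts of the 10 genes in MAVER (vertical axis, own scale for each gene) with DMSO (grey), IB (blue), KPT (red) and PU (green); points are libraries A, B and C from left to right, and the dash with bars is the mean and SD. DUSP1 and DUSP10 are highest with KPT, DUSP2 is lower with KPT and PU than with DMSO, and DUSP5 is lowest with IB.

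DUSP1 stood at 50.7, 47.6 and 46.1 normalized counts in the MAVER DMSO libraries and at 41.4, 29.1 and 38.2 with IB. The groups did not overlap (33.8% of all genes tested), and the difference of -0.41 (95% interval -0.74 to -0.09) was not called (limma adjusted p = 0.0648; 0.0359 without IB replicate A). For DUSP10 the values were 50.7, 49.5 and 64.1 with DMSO and 38.5, 50.3 and 38.2 with IB, which overlap (-0.37, interval -0.71 to -0.02, adjusted p = 0.137). DUSP2 was at 182, 210 and 149 with DMSO and at 182, 194 and 133 with IB (-0.09, interval -0.36 to 0.18, adjusted p = 0.709). SPRY1 was at 40.5, 41.9 and 32.0 against 30.8, 45.8 and 35.0 (-0.04, interval -0.55 to 0.46, adjusted p = 0.935). The DUSP2 and SPRY1 libraries overlapped almost entirely.

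The remaining 5 genes were under the filter in MAVER. SPRY2 missed it narrowly, with a mean of 9.87 normalized counts over the 12 libraries. It stood at 2.76, 4.76 and 7.04 with DMSO, 4.82, 10.1 and 17.0 with IB, 26.9, 13.1 and 11.2 with KPT, and 7.30, 5.10 and 8.38 with PU. The KPT libraries all lay above the DMSO libraries, and with no filter on low values SPRY2 was higher with KPT by 1.59 on the log2 scale (limma adjusted p = 0.0094). This rests on 17 reads with DMSO and 35 with KPT, 15 of them in KPT replicate A. With IB the SPRY2 estimate was then 0.91 (adjusted p = 0.262). Without the filter DUSP6 was also called lower with KPT than with IB (0.0165), on 0 and 5 reads. The IB response of SPRED2 and DUSP4 was called higher in JEKO1, as labelled, than in MAVER (0.00428 and 0.0431). SPRED2 ranged from 1.93 to 12.5 with overlapping groups. DUSP4, DUSP6 and SPRED1 had 6, 10 and 5 reads over the 12 libraries and were at 0 in 8, 6 and 9 of them; a count of 0 allows up to 1.70 to 5.38 normalized counts per library. Levels are not compared between the lines, because the tables were normalized separately.

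The response to IB differed between the lines for each of the 5 genes tested in both. The log2 fold change in JEKO1 minus that in MAVER was 5.21 ± 0.38 for DUSP5 (SE; limma adjusted p = 1.71e-11), 1.89 ± 0.28 for DUSP10 (4.96e-06) and 1.41 ± 0.19 for DUSP2 (7.53e-07). It was 1.12 ± 0.30 for SPRY1 (adjusted p = 0.00383) and 0.76 ± 0.25 for DUSP1 (0.0152), though the DUSP1 call was lost without JEKO1 IB replicate C (0.0522). DUSP5 reached the minimum mean in MAVER through its DMSO libraries, since its IB mean was 6.22, on 18 reads in all. All 5 differences were positive. Over 10574 genes, 21.7% were called positive, 19.7% negative and 41.4% either way. These values and their order hold for the JEKO1 labels as given. With those labels exchanged, an alternative chosen after seeing the data, the differences were -1.44 for DUSP5, -1.23 for DUSP2, -1.16 for DUSP10 and -1.03 for SPRY1 (adjusted p = 0.00717, 2.27e-05, 0.00394 and 0.0144). That of DUSP1 was then 0.07 and not called (95% interval -0.43 to 0.58, adjusted p = 0.868).

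With KPT, the phosphatase genes of MAVER split. DUSP1 and DUSP10 rose, DUSP2 and DUSP5 fell and SPRY1 was not called, in a comparison in which 27.3% of all genes rose, 28.5% fell and 55.9% were called either way. DUSP1 reached 131, 134 and 142 normalized counts, far above every DMSO library (log2 fold change 1.48 ± 0.16 SE, limma adjusted p = 3.04e-10). DUSP10 reached 77.1, 86.7 and 86.0, also without overlap, as for 60.4% of all genes (0.60 ± 0.17, adjusted p = 0.00273). With reads thinned to the total of the shallowest library, an alternative chosen after seeing the data, the DUSP10 call was lost (adjusted p = 0.0612).

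DUSP2 fell to 111, 127 and 121 normalized counts with KPT, under every DMSO library (log2 fold change -0.57 ± 0.13 SE, limma adjusted p = 0.000338). DUSP5 fell to 10.8, 11.9 and 12.5, with no overlap with DMSO (-1.05 ± 0.33, adjusted p = 0.00613). Leaving out DMSO replicate C ended that call (adjusted p = 0.0626), as did leaving out the RNA45S5-rich KPT replicates A and C (0.0583), where the estimates were -0.83 and -1.02. SPRY1 was spread widely with KPT, at 17.9, 47.5 and 38.6 normalized counts, around its DMSO level (-0.23, 95% interval -0.73 to 0.27, adjusted p = 0.444). KPT replicate A, the shallowest library, was low for SPRY1 and high for SPRY2.

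With PU, DUSP1 rose and DUSP2 fell, where 27.6% of all genes rose, 27.5% fell and 55.1% were called either way. DUSP1 stood at 86.3, 105 and 114 normalized counts, with no overlap with DMSO, as for 61.2% of all genes (log2 fold change 1.05 ± 0.16 SE, limma adjusted p = 4.83e-07). DUSP2 stood at 98.5, 118 and 122, under every DMSO library (-0.66 ± 0.13, adjusted p = 5.05e-05). The other tested genes overlapped with DMSO. DUSP5 was at 30.4, 18.1 and 22.3 (-0.12, 95% interval -0.78 to 0.54), DUSP10 at 71.8, 72.0 and 60.5 (0.31, interval -0.03 to 0.66) and SPRY1 at 48.6, 40.2 and 57.7 (0.34, interval -0.16 to 0.84), with adjusted p of 0.782, 0.118 and 0.248. The comparisons of IB, KPT and PU with DMSO share their 3 DMSO libraries.

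**Figure D3:**
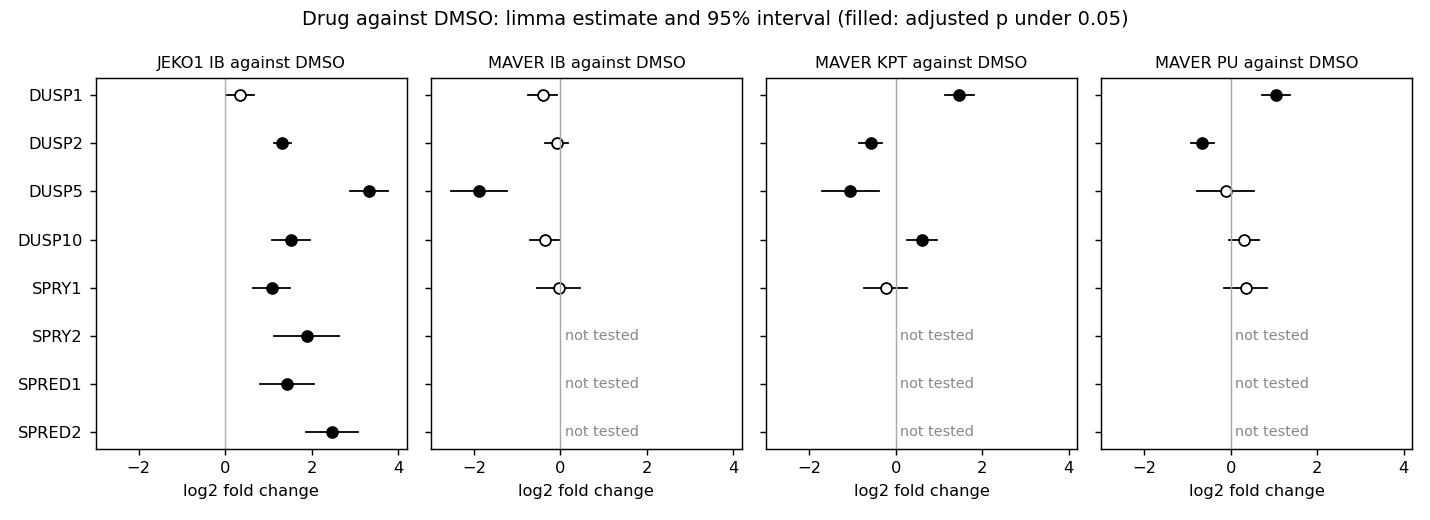
Log2 fold change of each drug against DMSO (horizontal axis; dot, limma estimate on the log2(value + 1) scale; line, 95% interval) for the genes tested in at least 1 line; filled dots have an adjusted p under 0.05. DUSP5 lies at 3.32 in JEKO1 and at -1.88 in MAVER with IB, and DUSP1 at 1.48 with KPT and 1.05 with PU.

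The MAVER drugs were also compared with each other, which gives an order of the 4 groups for each gene. DUSP1 was lowest with IB (36.2 ± 6.42, SD, n = 3), then DMSO (48.1 ± 2.31), PU (102 ± 13.9) and KPT (136 ± 5.71 normalized counts). IB and DMSO, which did not overlap, missed the threshold of the adjusted p (limma, 0.0648), while PU exceeded IB by 1.47 ± 0.16 (log2 ± SE; 3.25e-10) and KPT exceeded IB by 1.89 ± 0.16 (5.24e-13). PU was under KPT by a small margin (-0.42 ± 0.16, adjusted p = 0.0233), a call lost without PU replicate A (0.145), without KPT replicate C (0.0716), with no filter (0.0513), with thinned reads (0.105) or without KPT replicates A and C (0.159).

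DUSP10 followed the same order: IB (42.3 ± 6.87), DMSO (54.8 ± 8.10), PU (68.1 ± 6.56) and KPT (83.3 ± 5.34 normalized counts; SD, n = 3). No neighbours in this order were called different by limma (adjusted p = 0.137, 0.118 and 0.146), but KPT exceeded IB by 0.97 ± 0.17 (log2 ± SE; 7.23e-06) and PU exceeded IB by 0.68 ± 0.17 (0.000877; 0.146 with thinned reads). DUSP2 ran the other way, with PU (113 ± 12.5) and KPT (120 ± 8.02) low and IB (170 ± 32.6) and DMSO (180 ± 30.6) high. PU and KPT did not separate (adjusted p = 0.583), nor did IB and DMSO (0.709). KPT was under IB by 0.48 and PU by 0.57 on the log2 scale (adjusted p = 0.00217 and 0.000355). The KPT difference from IB was not called without KPT replicates A and C (0.0865).

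DUSP5 had its own order: IB (6.22 ± 1.55), KPT (11.7 ± 0.864), PU (23.6 ± 6.24) and DMSO (25.8 ± 7.52 normalized counts; SD, n = 3). The IB mean was under the minimum mean, which DUSP5 reached through the other groups. PU exceeded IB by 1.76 ± 0.33 (log2 ± SE; limma adjusted p = 1.43e-05) and KPT by 0.93 ± 0.33 (0.0143). The latter was lost without PU replicate A (0.095), with thinned reads (0.0944) or without KPT replicates A and C (0.0928). KPT exceeded IB by 0.84 ± 0.33 (adjusted p = 0.0275), a call lost under 8 of 17 alternatives, edgeR (0.0949) and DESeq2 (0.136) among them; the left-out libraries that ended it were IB replicate B (0.117), KPT replicate B (0.0512) and KPT replicate C (0.0631). SPRY1 was similar in all groups, from KPT (34.7 ± 15.2), IB (37.2 ± 7.73) and DMSO (38.2 ± 5.34) to PU (48.9 ± 8.74). Its single call, PU over KPT (0.57 ± 0.25, adjusted p = 0.046), came with overlapping libraries and was lost under 11 of 18 alternatives; without KPT replicate A the difference was 0.17 (adjusted p = 0.55), without PU replicate A it was not called (0.084), nor without PU replicate C (0.177).

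In these direct comparisons 3 of the 5 tested genes were called higher and 1 lower for KPT over IB, where 27% of all genes were higher, 28.2% lower and 55.2% either, and 58.4% did not overlap. The counts were the same for PU over IB (27.5%, 27.6% and 55.1%, with 59.8% not overlapping). DUSP5 was among the higher genes in both comparisons with IB. Its IB mean of 6.22 was under the minimum mean, so these counts are no independent measure of the family. Of the 4 genes that reached the minimum mean in each group, 2 were higher and 1 lower in each of these comparisons. For PU over KPT 2 of the 5 tested genes were higher and 1 lower (28.3%, 28.6% and 57%, with 60.6% not overlapping). Across the 12 MAVER libraries, which share the group differences just given, DUSP1 and DUSP10 correlated at r = 0.853 and DUSP1 and DUSP2 at r = -0.76 (log2 values). DUSP5 and SPRY1 correlated with DUSP1 at 0.29 and -0.01.

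The genes whose levels ran most like those of a family member over the 12 MAVER libraries were found among 9527 genes with a mean of at least 50 normalized counts. For DUSP1 they were PPP1R15A, which encodes a regulatory subunit of the stress-response phosphatase of eIF2 alpha (r = 0.988), and the membrane scaffold gene KIDINS220 (r = 0.981). PPP1R15A averaged 246 normalized counts with DMSO, 208 with IB, 516 with KPT and 451 with PU, the same order as DUSP1. It was picked by its likeness to DUSP1, so the shared order is no further result. For DUSP10 they were the myosin light chain gene MYL12A (r = 0.968) and the glycosyltransferase gene GCNT1 (r = 0.954). For DUSP2 they were CYC1, cytochrome c1 of the respiratory chain (r = 0.959), and the RNA exosome subunit gene EXOSC4 (r = 0.954).

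The wider pathway was read from gene lists chosen with earlier results of these data known, so their counts are no independent evidence. Of 7 other MAP kinase phosphatase, Sprouty and Spred genes, DUSP7, a cytoplasmic ERK phosphatase, was the one that passed the filter. It rose with IB in JEKO1 from 256 ± 5.06 to 335 ± 9.59 normalized counts (SD, n = 3; limma adjusted p = 0.000495). In MAVER it fell from 143 ± 12.6 to 91.1 ± 10.8 with KPT and to 73.9 ± 5.60 with PU, and was not called with IB (log2 fold change -0.07).

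Early response and ETS target genes of ERK moved with IB in both lines. In JEKO1, 11 of 13 tested rose and 0 fell, with a median log2 fold change of 1.04 beside -0.01 over all genes, of which 21.9% rose. The early genes EGR2 and EGR3 and the receptor gene EPHA2 passed the filter only through their IB libraries, so their rise was fixed by it. Of the 10 genes that averaged 10 or more in each group, 8 rose and 0 fell (median 0.56). EGR1, an immediate early transcription factor, rose from 17.7 ± 3.12 to 211 ± 15.8 normalized counts and the AP-1 gene JUNB from 222 ± 15.4 to 729 ± 49.8 (SD, n = 3). In MAVER with IB, 6 of 11 fell and 1 rose (median -0.35, beside -0.01), where 9.65% of all genes fell and 10.1% rose. Without EGR1 and EGR2, whose IB means were under 10, 4 of 9 fell and 1 rose (median -0.09). EGR1 went from 33.2 ± 9.09 normalized counts to 0.321 ± 0.556, which is 1 read in 3 libraries, and the EGR corepressor gene NAB2 fell from 294 ± 20.1 to 129 ± 8.88. With KPT 6 of 11 fell and 1 rose (median -0.13; 28.5% and 27.3% of all genes), or 5 of 10 without EGR1, whose KPT mean was under 10. With PU 5 of 11 fell and 3 rose (median -0.21; 27.5% and 27.6% of all genes). IER5, a stress-inducible early gene, fell from 830 ± 20.9 to 518 ± 24.8 with KPT and rose to 1843 ± 44.7 with PU, and JUNB fell from 529 ± 45.3 to 362 ± 6.82 and 205 ± 14.1.

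**Figure D4:**
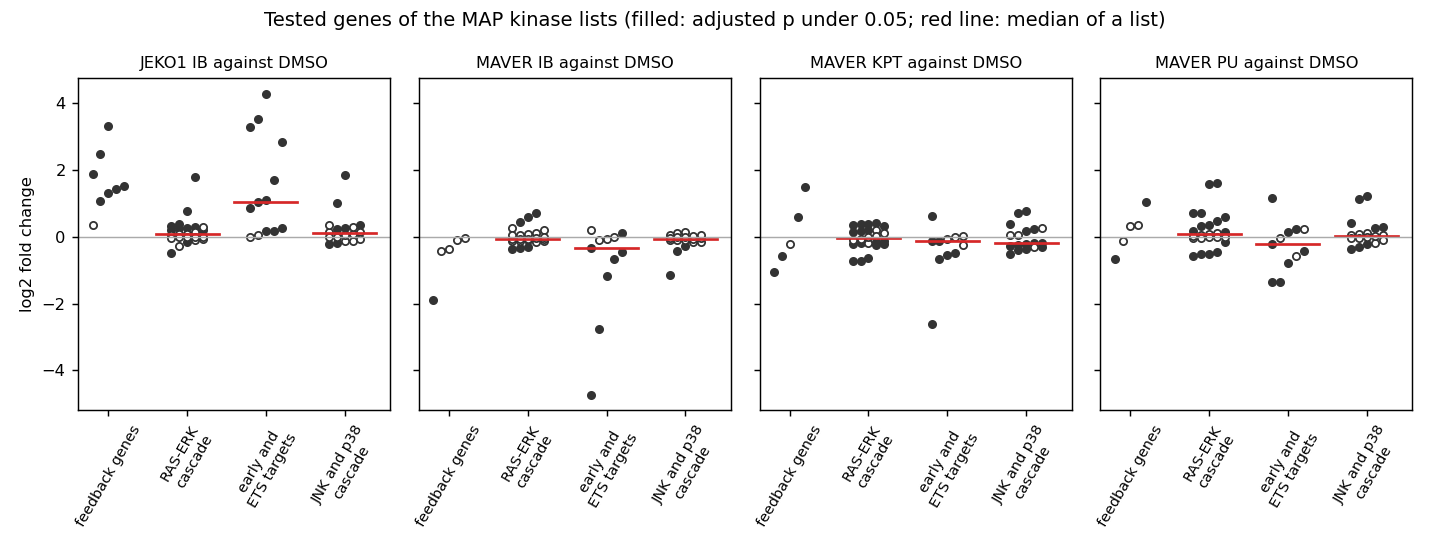
Log2 fold changes (vertical axis) of the tested feedback genes and of 3 MAP kinase gene lists in each comparison with DMSO; each dot is a gene, filled where the adjusted p is under 0.05, and red lines are medians of the lists. Early response and ETS targets have a median of 1.04 in JEKO1 with IB and -0.35 in MAVER with IB. The JEKO1 median was raised by genes that passed the filter only through their IB libraries. The MAVER median was lowered by EGR1 and EGR2, whose IB means were under 10. The JNK and p38 list has its lowest median, -0.19, with KPT.

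Genes of the RAS-ERK cascade itself moved in both directions, with medians near 0. Of 24 tested, 9 rose and 2 fell with IB in JEKO1 (median log2 fold change 0.09), beside 21.9% and 20.2% of all genes. In MAVER 3 rose and 3 fell with IB (median -0.06; 10.1% and 9.65% of all genes), 8 rose and 9 fell with KPT (-0.04; 27.3% and 28.5%), and 10 rose and 5 fell with PU (0.08; 27.6% and 27.5%). With IB, 11 of 24 were called in JEKO1 and 6 of 24 in MAVER, shares near the 42% and 19.8% of all genes. By direction the JEKO1 list differed from all genes, since 37.5% of it rose and 8.33% fell. The share that rose was 33.3% with KPT and 41.7% with PU, and the share that fell was 37.5% and 20.8%. RASGRP1, a RAS activator of lymphocytes, rose from 41.0 ± 3.55 to 145 ± 13.5 normalized counts in JEKO1 with IB (SD, n = 3). In MAVER it fell from 198 ± 16.1 to 152 ± 3.29 with IB and to 128 ± 20.4 with KPT, and rose to 608 ± 38.2 with PU, where the adaptor gene SHC1 rose from 854 ± 32.5 to 1389 ± 55.3. RPS6KA1, a kinase downstream of ERK, rose in JEKO1 from 1338 ± 78.8 to 2296 ± 112 and fell in MAVER from 2335 ± 60.8 to 1845 ± 48.7 with IB, 1406 ± 42.5 with KPT and 1700 ± 45.6 with PU. RASGRP3, a related RAS activator, rose with IB in MAVER from 441 ± 0.81 to 663 ± 44.0.

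The list of JNK and p38 cascade genes, which holds these kinases, their activators and proteins downstream of them, numbered 18. With IB, 5 rose and 2 fell in JEKO1 and 0 rose and 3 fell in MAVER (median log2 fold change 0.11 and -0.05). With KPT 5 rose and 9 fell (-0.19), and with PU 5 rose and 3 fell (0.04). Over all genes 21.9% rose and 20.2% fell in JEKO1 with IB, 10.1% and 9.65% in MAVER with IB, 27.3% and 28.5% with KPT, and 27.6% and 27.5% with PU. The PU count, 8 of 18, was thus below the 55.1% called over all genes. With KPT 50% of the list fell, above the 28.5% of all genes, and 27.8% rose. JUN, the AP-1 subunit phosphorylated by JNK, rose from 14.4 ± 5.42 to 53.5 ± 12.6 normalized counts in JEKO1 with IB (SD, n = 3). In MAVER it fell from 40.6 ± 3.63 to 18.5 ± 6.53 with IB and rose to 96.6 ± 5.72 with PU. MAPK8, which encodes JNK1, rose with KPT from 341 ± 15.9 to 578 ± 33.0. MAPKAPK2, a kinase downstream of p38, rose in JEKO1 with IB from 636 ± 64.0 to 1273 ± 50.2 and fell in MAVER with KPT from 913 ± 24.6 to 713 ± 29.7. MAPK13, a p38 kinase gene, fell with IB in MAVER from 166 ± 4.47 to 124 ± 4.73, and MAP2K6, a p38 activator, rose with PU from 102 ± 5.73 to 222 ± 16.3.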

How the data were processed

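RNA was sequenced from 18 libraries. Per the labels' protocols, stranded TruSeq libraries were read as single 50-base reads, aligned with STAR, quantified with Cufflinks and tested with DESeq2. FastQC and the build hg19 are listed in the submitters' processing notes. No source used here names the read counter, its use of strand or the gene models, so overlapping and antisense transcripts cannot be told apart. The authors deposited normalized counts, a signal per gene, in 2 tables normalized separately. Every value was a whole multiple of what 1 read is worth in its library, within 0.01 read (100% of values), so reads were recovered.

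Tests used limma 3.58.1 in R 4.3.3 (trend; pseudocount 1; minimum mean 10), checked on simulated counts. The 4 MAVER groups were fitted together. The line difference used the 12 IB and DMSO libraries, with the minimum mean reached in each line. Alternatives, with edgeR 4.0.16 and DESeq2 1.42.0 on recovered reads among them, are given in the closing section. Named genes are the 10 members, the 2 called genes of each list with the smallest p in each comparison with DMSO, the 2 genes with the highest r for members averaging at least 50, and BTK and XPO1. Members and lists were chosen with earlier results of these data known. The 28 date-like gene names per line were tested but are never reported. Intervals cover the spread between libraries, and floors cover counting error only.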

Additional observations from a re-analysis of the deposited data

Results flagged for a closer look

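The response to IB differed between the lines for DUSP5 (5.21, log2 fold change in JEKO1 minus that in MAVER), DUSP10 (1.89), DUSP2 (1.41), SPRY1 (1.12) and DUSP1 (0.76), each by limma's test of the difference itself, with adjusted p of 1.71e-11, 4.96e-06, 7.53e-07, 0.00383 and 0.0152. These values hold for the JEKO1 labels as given; with them exchanged they were -1.44, -1.16, -1.23, -1.03 and 0.07, the last not called (adjusted p = 0.868). With the labels as given, the DUSP5 libraries moved in opposite directions without overlap in either line. The DUSP5 mean with IB in MAVER was 6.22, under the minimum mean, which DUSP5 reached there through its DMSO libraries. For DUSP2, DUSP10 and SPRY1, IB and DMSO libraries overlapped in MAVER and were apart in JEKO1. Over all genes tested, IB and DMSO libraries did not overlap for 50.2% in JEKO1 and 33.8% in MAVER.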

How the results depend on the processing

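Of 776 recomputed values of single genes, 725 kept their direction and side of the threshold, 34 lost a call, 1 gained it and 16 changed sign. With the JEKO1 labels exchanged, 4 of these were line differences, at -1.44 for DUSP5, -1.23 for DUSP2, -1.16 for DUSP10 and -1.03 for SPRY1 (2418 genes called in all, against 4378); the other 12 were uncalled in both fits. The replicate letters showed little sign of pairing the samples (correlation of same-letter deviations -0.04 to 0.12 in JEKO1 and -0.09 to 0.10 in MAVER). With 3 libraries a group, a weak pairing can be missed. With the replicate block the counts of called members were the same, 7 for JEKO1 IB. A minimum mean of 50 left 2 members called for JEKO1 IB, 0 for MAVER IB, 1 for PU against KPT and 1 for the line difference, since fewer members passed it. For PU against KPT the count was 1 with no filter and 0 with thinned reads or without the RNA45S5-rich KPT libraries, which gave 2 for KPT against IB; the cause was not tested. Leaving out each replicate gave 1 to 3 members for MAVER IB and 1 to 3 for PU against KPT. The 3 for MAVER IB came without IB replicate A: DUSP1 and DUSP5 were lower and SPRY2 was higher (log2 fold change 1.34, limma adjusted p = 0.0452). The 1 for PU against KPT came without PU replicate A and was SPRY2, lower with PU. Leaving out replicates moved uncalled values across 0: MAVER IB ranged from -0.20 to 0.0784 for SPRY1 and -0.22 to 0.0763 for DUSP2, KPT from -0.51 to 0.17 for SPRY1, PU from -0.31 to 0.10 for DUSP5, KPT against IB from -0.46 to 0.22 for SPRY1 and PU against KPT from -0.15 to 0.00408 for DUSP2. Without the RNA45S5-rich KPT libraries SPRY1 was at 0.32 (KPT) and 0.36 (KPT against IB). Where a group was left with 1 library, it was assumed to vary like the others. Depth limits DUSP4, DUSP6 and SPRED1 in MAVER, at 5 to 10 reads over 12 libraries.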
